A study of Homo sapiens with 2 samples.

Results

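DDIT4L and EMCN lie side by side near 100 Mb of the long arm of chromosome 4, and both were almost absent from MIA PaCa-2 cells carrying a guide against TPST2 while the other expressed genes around them were not. The 7 genes described here are those 2 and 5 neighbours, DAPP1, LAMTOR3, DNAJB14, H2AFZ and PPP3CA, taken by symbol from a deposited table of 58698 genes. DDIT4L and EMCN were selected on their values in sgGFP and sgTPST2, which are low in sgTPST2, and the neighbours on their position, so their differences are given as a description and carry no test. What the choice did not fix is how the remaining genes of the region, the genes' pathway partners and the promoters compare.

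The study sequenced total RNA from MIA PaCa-2, an established human pancreatic cancer cell line, in 2 libraries. The control, sgGFP, has the genotype label WT and a guide against GFP, a sequence human cells lack, and the other, sgTPST2, is labelled TPST2 KD. Each group is 1 library, so no difference below has a replicate check, and intervals cover counting error only. TPST2, a Golgi enzyme that sulfates tyrosines of secreted and membrane proteins, stood at 8.46 FPKM (a level per length of transcript and depth of library) in sgGFP and 1.92 FPKM in sgTPST2. The labels give neither the way in which the guide acted nor whether the cells were 1 clone. Of the markers of the labelled cell type, the epithelial gene EPCAM was listed at 0 in both libraries and CDH1 at 0 and 0.052 FPKM. Of the ductal and acinar genes, 7 of 10 were listed at 0 in both. The others were SOX9 at 4.55 FPKM in sgGFP and 1.25 in sgTPST2, KRT7 at 0.615 and 0.112, and MUC1 at 0.828 and 1.71. Among the epithelial genes, KRT18 stood at 583 FPKM in sgGFP and 85.3 in sgTPST2 and KRT8 at 510 and 41.6. KRT19 was at 189 and 12.8 FPKM and CLDN4 at 27.9 and 18.1.

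DDIT4L, also known as REDD2, is a stress-induced inhibitor of the growth kinase complex mTORC1, and its paralogue DDIT4 (REDD1) acts on the same pathway. mTORC1 is activated on the lysosome surface, where the Ragulator complex, of which LAMTOR3 is a subunit, anchors the Rag GTPases; LAMTOR3 is also known as a scaffold for the kinase MEK1. EMCN encodes endomucin, a sialomucin of the endothelial surface that is used as a marker of capillaries and veins and is not a usual marker of pancreatic epithelium. Genes that lie together on a chromosome can share regulatory elements or be changed together by a change in the DNA, and expression values alone do not tell these apart.

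The sequences before the start sites of DDIT4L and EMCN are shown because these neighbours were low together and their upstream regions are unlike. They are from RefSeq (GRCh38.p14, minus strand), cut to the longest stretch outside any annotated exon within the 250 bases before the RefSeq start. DDIT4L is shown at chr4:100190469-100190662 and EMCN at chr4:100518094-100518272. The RefSeq starts used, 100190468 for DDIT4L and 100518022 for EMCN, lie inside the annotated gene spans given below, as do both printed stretches. Capitals mark matches, on either strand, to 6 motifs: the core promoter element with the letters TATAAA, the Sp1-type element with the letters GGGCGG, the letters CCAAT, the E-box with the letters CAGGTG, the E-box with the letters CACGTG, and the AP-1 element with the letters TGANTCA.
DDIT4L: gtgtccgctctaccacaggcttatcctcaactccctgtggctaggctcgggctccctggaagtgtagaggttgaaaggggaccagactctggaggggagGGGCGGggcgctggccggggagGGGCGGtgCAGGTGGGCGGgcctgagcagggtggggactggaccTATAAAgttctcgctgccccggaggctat
EMCN: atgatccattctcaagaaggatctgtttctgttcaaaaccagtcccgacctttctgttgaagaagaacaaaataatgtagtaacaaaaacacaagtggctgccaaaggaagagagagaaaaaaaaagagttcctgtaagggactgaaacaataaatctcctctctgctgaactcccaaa

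The full 250 bases before each RefSeq start, called the promoter here, include bases of annotated exons for both genes. Over them, the DDIT4L promoter was 65.2% G and C with 13 CpG dinucleotides, and that of EMCN was 41.2% with 2. The medians over 35116 RefSeq promoters of the same length were 58.0% and 11. DDIT4L held 1 TATAAA, which begins 29 bases before the RefSeq start, 3 GGGCGG and 2 CAGGTG. One CAGGTG begins 197 bases before the start, outside the stretch printed, and the other, at 65 bases, overlaps the GGGCGG at 60 bases. EMCN held none of the 6 motifs in this window. Of all promoters, 10.7% held TATAAA, 42.6% at least 1 GGGCGG and 24.3% at least 2, and 32.0% CCAAT. For CAGGTG the shares were 17.5% with at least 1 and 2.53% with at least 2. CACGTG was in 6.34% and TGANTCA in 6.57%. The neighbour H2AFZ (H2AZ1 in RefSeq) also held 1 TATAAA, with 2 GGGCGG, 3 CCAAT and 64.0% G and C. LAMTOR3 has 2 promoter entries, each with 3 GGGCGG, and entry 1 also held 1 TATAAA. DNAJB14 held 3 GGGCGG at 82% G and C, and DAPP1 held 1 CCAAT and 1 CAGGTG at 52.4%. No promoter entry for PPP3CA was used here.

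DDIT4L (ENSG00000145358.6, chromosome 4, 100185870 to 100190782, minus strand, GRCh38) stood at 34.0 FPKM in sgGFP and 0.244 FPKM in sgTPST2. At this depth 1 kb of DDIT4L transcript would hold about 1436 fragments in sgGFP and 12 in sgTPST2, with Poisson 95% intervals of 32.3 to 35.8 and of 0.125 to 0.429 FPKM. The control library is high and the sgTPST2 library near the lower end of what could be counted, with intervals far apart. The ratio is 139-fold lower (95% counting interval 79.1 to 273), and the log2 difference is -4.82 on the log2(FPKM + 1) scale used from here on.

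EMCN (ENSG00000164035.9, 100395341 to 100880126, minus strand) stood at 9.64 FPKM in sgGFP and 0.136 FPKM in sgTPST2. This amounts to about 407 and 6.5 fragments per kb, with intervals of 8.72 to 10.6 and 0.0527 to 0.287 FPKM. The ratio is 70.8-fold lower (33.3 to 184), and the log2 difference is -3.23. The counting intervals of the fold for DDIT4L and EMCN, each taken for 1 kb of transcript, overlap. Whether 1 of the 2 was lowered further was not tested, and no order is read from them. Among 8795 protein-coding genes that the authors tested and that reached 5 FPKM in either library, DDIT4L had the 2nd lowest difference and EMCN the 14th. Adding 1 compresses the differences of genes near 0, and with a pseudocount of 0.1, added after seeing the data for these ranks, DDIT4L was the 3rd and EMCN the 7th.

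**Figure D1:**
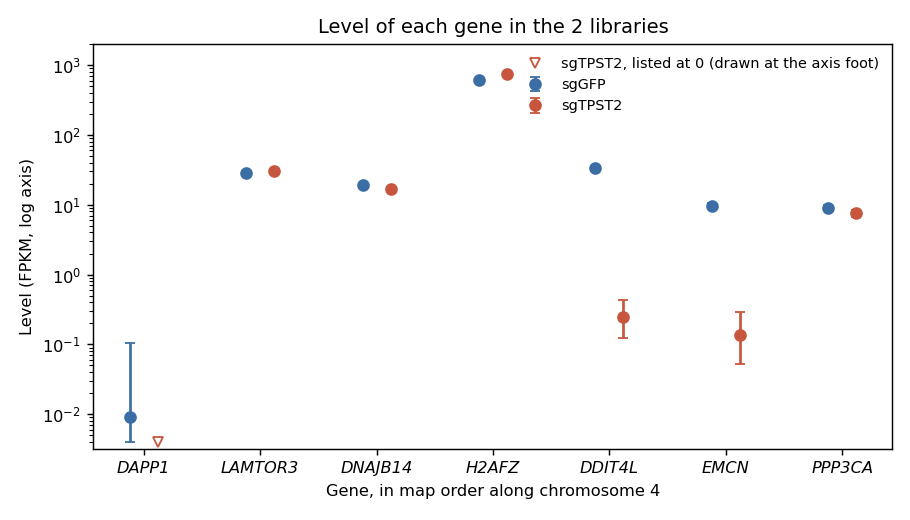
Level in FPKM (log axis) of the 7 genes in map order, in sgGFP (blue) and sgTPST2 (red), 1 library each, with bars for the Poisson 95% counting interval of 1 kb of transcript; the open triangle marks a value listed at 0. DDIT4L at 34.0 and 0.244 FPKM and EMCN at 9.64 and 0.136 FPKM stand apart between libraries, while the points of LAMTOR3, DNAJB14, H2AFZ and PPP3CA lie close together.

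The gene next to DDIT4L on one side is H2AFZ (ENSG00000164032.11, 99948086 to 99950388), which encodes the histone variant H2A.Z found at promoters and enhancers. H2AFZ stood at 614.5 FPKM in sgGFP and 733.5 in sgTPST2, a log2 difference of 0.26 with a counting interval of 0.23 to 0.28. It lies 235 kb from DDIT4L and was slightly the higher in sgTPST2. The table holds 6 H2AFZ pseudogenes, at up to 1.64 FPKM, whose reads could be mixed with those of H2AFZ.

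PPP3CA (ENSG00000138814.16, 101023409 to 101348278), the catalytic alpha subunit of the calcium-dependent phosphatase calcineurin, is the next protein-coding gene beyond EMCN. It stood at 8.92 FPKM in sgGFP and 7.52 in sgTPST2, a log2 difference of -0.22 with a counting interval of -0.40 to -0.03. EMCN and PPP3CA had overlapping counting intervals in the control (8.72 to 10.6 and 8.04 to 9.86 FPKM). In sgTPST2 PPP3CA was at a level of the same order as before and EMCN was not.

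DNAJB14 (ENSG00000164031.16, 99896248 to 99946726), a co-chaperone of the endoplasmic reticulum membrane, stood at 18.9 FPKM in sgGFP and 16.7 in sgTPST2 (log2 difference -0.17). LAMTOR3 (ENSG00000109270.12, 99878336 to 99894490) stood at 28.5 and 30.1 FPKM (log2 difference 0.08), and its 2 pseudogenes in the table at up to 0.380 FPKM. DAPP1 (ENSG00000070190.12, 99816833 to 99870154), an adaptor of phosphoinositide signalling best known from B lymphocytes, was at 0.00924 FPKM in sgGFP and listed at 0 in sgTPST2. Less than 1 fragment per kb lay behind the DAPP1 value, so it gives no information on change, and 6 of the 7 genes reached 1 FPKM. The 4 expressed neighbours thus lay between -0.22 and 0.26, with DNAJB14 and PPP3CA lower and LAMTOR3 and H2AFZ higher.

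The order of levels changed accordingly. In the control it ran from H2AFZ through DDIT4L, LAMTOR3, DNAJB14, EMCN and PPP3CA to DAPP1, and only the intervals of EMCN and PPP3CA overlapped among neighbours in that order down to PPP3CA. In sgTPST2 the order was H2AFZ, LAMTOR3, DNAJB14, PPP3CA, DDIT4L, EMCN and DAPP1, and the intervals overlapped for DDIT4L and EMCN and for EMCN and DAPP1, so the order of these is not resolved. DDIT4L went from above LAMTOR3 to below PPP3CA.

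The stretch between H2AFZ and PPP3CA spans 1.07 Mb and holds 9 annotated genes, of which DDIT4L and EMCN are the only 2 that code for protein. Of the other 7, 6 were listed at 0 in both libraries and the pseudogene AC097460.2 was at 0.0855 and 0.0374 FPKM. DDIT4L and EMCN are 205 kb apart, and EMCN, as annotated, ends 143 kb from PPP3CA. That end comes from a non-coding transcript, and the coding transcripts of EMCN end 505 kb from PPP3CA. The only 2 genes of this stretch that reached 1 FPKM were DDIT4L and EMCN, which did so in sgGFP alone and were selected as low in sgTPST2. That both were low was thus fixed beforehand and is no result about the stretch. H2AFZ and PPP3CA, the nearest expressed genes on each side, were not 2-fold lower. Whether DDIT4L and EMCN share a regulatory domain was not tested, since the files hold expression values and no measure of contacts, marks or copy number. LAMTOR3, DNAJB14, H2AFZ, DDIT4L, EMCN and PPP3CA all lie on the minus strand and DAPP1 on the plus strand.

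The antisense genes AC097460.1 (99950006 to 100195099) and AP001961.1 (100190033 to 100215505) overlap DDIT4L on the plus strand, and both were listed at 0. In the authors' deposited table DDIT4L and H2AFZ belong to 1 locus of 6 genes, from 99948086 to 100215505. The authors' deposited table gives DDIT4L p = 0.0272 and q = 0.99965, and EMCN p = 0.00285 and q = 0.296. For LAMTOR3, DNAJB14, H2AFZ and PPP3CA the authors' deposited table gives q = 0.99965, and DAPP1 was not tested there. None of the 7 passes q = 0.05 in the authors' deposited table, against 0.425% of the 18574 genes tested there that are called and lower. Of the 15 protein-coding genes at 5 FPKM or more that were at least 8-fold lower, 8 pass that threshold in the authors' deposited table.

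Within 5 Mb on each side of the midpoint between DDIT4L and EMCN, 122 genes are annotated and 25 reached 1 FPKM in either library. Of these 25, DDIT4L and EMCN were at least 2-fold lower, and 0 of the other 23 were 2-fold lower or higher. Over all 13420 genes at 1 FPKM or more, 2.93% were 2-fold lower and 1.61% higher. The median of the other 23 was -0.06, beside 0.00 over all genes, with 13 below and 10 above 0. At 23 genes, the background shares correspond to less than 1 gene in either direction, so a count of 0 is near the background. On the side of H2AFZ the 9 genes ran from -0.17 to 0.26, and on the side of PPP3CA the 14 genes ran from -0.51 to 0.62.

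On the side of H2AFZ, the cap-binding translation factor gene EIF4E stood at 48.6 FPKM in sgGFP and 46.5 in sgTPST2, and the alcohol dehydrogenase gene ADH5 at 108 and 111 FPKM. RAP1GDS1, which encodes an exchange factor for small GTPases, was at 37.2 and 44.4 FPKM, and the methionine aminopeptidase gene METAP1 at 25.5 and 29.9. The tRNA methyltransferase gene TRMT10A was at 3.82 and 3.66 FPKM. None of these 5 was 1.5-fold apart.

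On the side of PPP3CA, the ubiquitin-conjugating enzyme gene UBE2D3 stood at 164 and 173 FPKM, the pyrophosphatase gene PPA2 at 86.1 and 82.5, and CISD2 at 38.3 and 35.5. NFKB1, an NF-kappaB subunit gene, was at 21.9 and 19.9 FPKM, the mitotic kinesin gene CENPE at 26.1 and 23.9, and SLC9B2 at 9.94 and 9.46. BDH2 was at 4.42 and 3.24 FPKM, the lysosomal mannosidase gene MANBA at 3.73 and 3.43, TET2, a DNA demethylation enzyme gene, at 3.30 and 3.57, and FLJ20021 at 0.985 and 1.19. The metal transporter gene SLC39A8 stood at 23.7 and 37.0 FPKM (0.62). With 1 added to each value, SLC39A8 was the 1 gene of the 23 that was 1.5-fold apart in either direction. Over all genes 6.94% were 1.5-fold lower and 4.41% higher. SLC39A8 was higher, the opposite direction to DDIT4L and EMCN. The antisense gene AC018797.2 was lower, the same direction as DDIT4L and EMCN, at 1.69 FPKM in sgGFP and 0.894 in sgTPST2 (-0.51). It was 1.89-fold lower without the added 1 (counting interval 1.28 to 2.83), and stayed under 1.5-fold only with it.

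**Figure D2:**
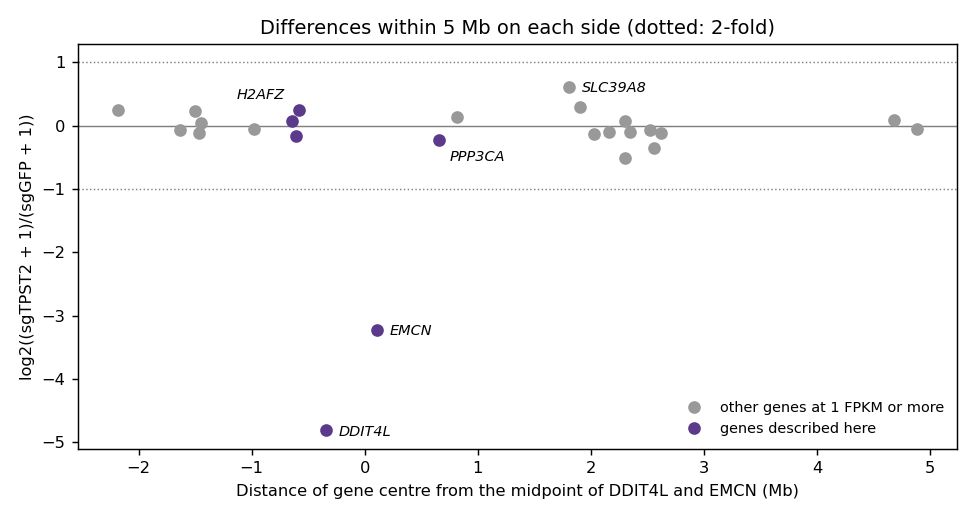
Difference between libraries, log2((sgTPST2 + 1)/(sgGFP + 1)), of the 25 genes at 1 FPKM or more within 5 Mb, against the distance in Mb of the gene's centre from the midpoint of DDIT4L and EMCN; each point is 1 gene, purple for the 6 expressed genes described here, and dotted lines mark 2-fold. DDIT4L at -4.82 and EMCN at -3.23 lie far below a band of 23 genes between -0.51 and 0.62.

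Chromosome 4 as a whole had a median slightly below 0. Its 446 genes at 1 FPKM or more had a median of -0.04, with 12 genes 2-fold lower and 9 higher, beside 2.93% and 1.61% over all genes. Of the 446, 248 were below 0 and 198 above, beside 6714 and 6706 over all genes. In windows of 10 Mb, the window from 100 to 110 Mb, which holds DDIT4L and EMCN, had a median of -0.05 over 32 genes, and the window from 90 to 100 Mb one of 0.06 over 12 genes. The latter holds the pseudogene TMSB4XP8, at 11.0 FPKM in sgGFP and listed at 0 in sgTPST2, the 1 other gene within 10 Mb of the midpoint that was 2-fold lower. The medians of the 18 windows with at least 10 genes ran from -0.22 to 0.06, and all those from 10 to 90 Mb were below 0. A median over 32 genes does not register 2 low genes.

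**Figure D3:**
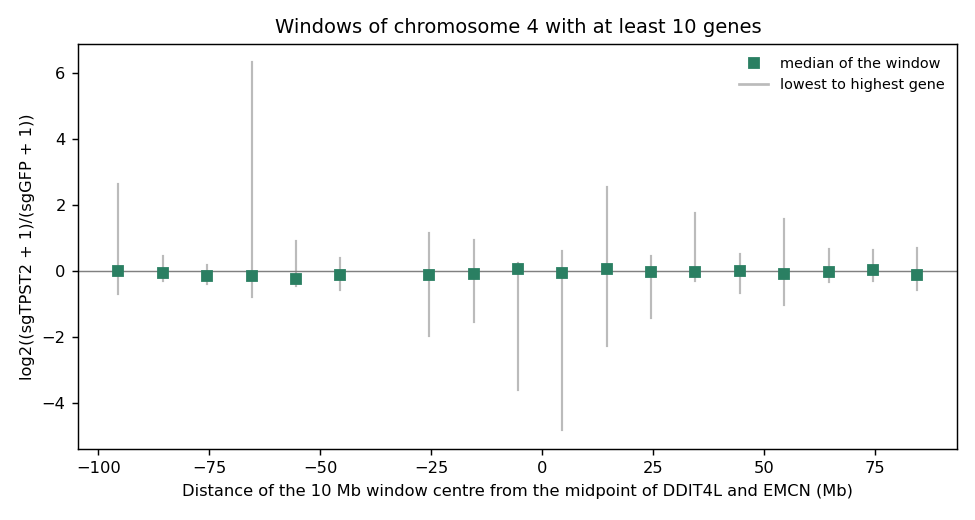
Median difference (green squares) and the range from the lowest to the highest gene (grey lines) of the 18 windows of 10 Mb on chromosome 4 with at least 10 genes at 1 FPKM or more, against the distance in Mb of the window's centre from the midpoint of DDIT4L and EMCN. Medians stay between -0.22 and 0.06 along the chromosome, and the window with DDIT4L and EMCN reaches -4.82 at its lowest gene.

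The number of low genes that lie close together was also counted. On the short arm of chromosome 12, 109 of 111 protein-coding genes at 5 FPKM or more were lower in sgTPST2, and that arm was left out here. Elsewhere 194 of 9369 genes that the authors tested and that reached 5 FPKM were at least 2-fold lower (2.07%). Of these 194, 56 (28.9%) had another such gene within 1 Mb, DDIT4L and EMCN, selected as low, among them. The same count was not made for genes that were not low, so this share has no background beside it. With genes at 1 FPKM or more it was 140 of 337 (41.5%), and with the short arm of chromosome 12 kept 93 of 236 (39.4%). A stricter description was added with these values known. Among 8684 protein-coding genes tested by the authors and at 5 FPKM or more outside that arm, 15 were at least 8-fold lower (0.173%), and for 6 of the 15 the next gene of this set on either side was at least 2-fold lower.

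Pairs of neighbours that were both 8-fold lower numbered 2, DDIT4L with EMCN and KRT15 with KRT19. DDIT4L and EMCN were selected as low neighbours, and the 8-fold limit was set with their values known. Their place among the 6 and in this count of pairs was thus fixed beforehand and is no result. The keratin genes KRT15 and KRT19 lie 1.09 kb apart within a cluster of related genes, whereas DDIT4L and EMCN are 205 kb apart and encode unrelated proteins. KRT8, another of the 6, lies beside KRT18, and PTX3, the last, has its next gene VEPH1 at 52.6 and 9.67 FPKM, within whose span PTX3 lies. For the remaining 9 of the 15, among them SERPINA3 on chromosome 14 and NR5A2 on chromosome 1, neither next gene was 2-fold lower.

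With 2 libraries, likeness between genes is only the nearness of 1 difference. By this measure the 3 protein-coding genes nearest to DDIT4L were PTX3 (-4.39), SERPINA3 (-5.59) and MT1G (-3.90), the last listed at 0 in sgTPST2. The 3 nearest to EMCN were the lysosomal protease gene CTSC at 359 and 40.0 FPKM (-3.13), the cytokine gene CSF3 at 11.4 and 0.213 (-3.36) and the calcium-binding protein gene CALB2 at 19.5 and 1.01 (-3.36). The likeness of EMCN to CTSC comes from the added 1: without it CTSC was 8.97-fold lower and EMCN 70.8-fold. With a pseudocount of 0.1 the 3 nearest to EMCN were MYBPH, ARHGAP29 and CSF3, and the 3 nearest to DDIT4L were the same genes as before. None of the 6 genes with values here lies on chromosome 4.

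Values of the pathway in which DDIT4L and LAMTOR3 act were compared next. Of 34 genes of mTORC1 and lysosomal nutrient sensing, 32 reached 1 FPKM, and DDIT4L was the 1 gene 2-fold lower, with 0 higher and a median of 0.00. DDIT4L was selected for its low value, and with 2.93% of all genes lower and 1.61% higher, under 1 of 32 would be called in either direction at those shares, so the count is no result about the pathway. DDIT4, the paralogue of DDIT4L, stood at 33.9 FPKM in sgGFP and 43.3 in sgTPST2. In the control the paralogues were therefore at about the same level per length (34.0 and 33.9 FPKM), and in sgTPST2 DDIT4 was the 1 of the pair still measured above 1 FPKM. The 5 Ragulator subunits, LAMTOR1 to LAMTOR5, ran from -0.02 to 0.13, with LAMTOR1 at 44.9 and 49.1 FPKM, LAMTOR2 at 53.7 and 58.1, LAMTOR4 at 82.9 and 81.5 and LAMTOR5 at 96.4 and 103.9.

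After DDIT4L, the 3 genes farthest apart in that list were 2 Rag GTPase genes and TSC2. RRAGD stood at 19.6 and 12.8 FPKM (-0.58) and RRAGC at 9.14 and 13.4 (0.51). TSC2, a subunit of the complex that restrains mTORC1, stood at 20.7 and 29.5 FPKM (0.49). All 8 kinases and scaffolds of the MAPK group around LAMTOR3 reached 1 FPKM, with 0 at 2-fold in either direction and a median of 0.05. MAP2K1, which encodes the MEK1 that LAMTOR3 binds, was at 11.5 and 9.55 FPKM.

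For the partners of the other neighbours, read against the same shares over all genes (2.93% lower and 1.61% higher), the counts were also near the background. Of 17 calcineurin and NFAT genes, 13 reached 1 FPKM, 1 was 2-fold higher and 0 lower (median 0.08). The catalytic subunit gene PPP3CB stood at 9.64 and 11.6 FPKM and the regulatory subunit gene PPP3R1 at 23.0 and 21.9. The gene past 2-fold was AKAP5, an anchoring protein that binds calcineurin, at 1.04 and 4.56 FPKM, named after its value was seen.

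All 16 genes of H2A variants and H2A.Z loading reached 1 FPKM, with 0 at 2-fold in either direction on the log2(FPKM + 1) scale and a median of -0.02. H2AFV, the paralogue of H2AFZ, stood at 191 and 199 FPKM, while H2AFJ, a gene of the short arm of chromosome 12, stood at 192 and 122 and the macroH2A gene H2AFY2 at 8.70 and 4.16, which is 2.09-fold lower without the added 1 and 1.88-fold with it. None of 9 DNAJB chaperone genes was 2-fold apart (median 0.00), and DNAJB12, the closest relative of DNAJB14, stood at 10.7 and 13.8 FPKM. Of 13 genes of PH-domain adaptors and PI3K lipid signalling, 10 reached 1 FPKM, with 1 higher and 0 lower (median 0.10). The higher one was PLEKHA2 at 5.92 and 16.0 FPKM, while its relative PLEKHA1 stood at 5.50 and 2.92.

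EMCN was not the only sialomucin that was low in sgTPST2. Of 7 sialomucin genes, 4 reached 1 FPKM and 2 of them were 2-fold lower, with 0 higher, beside 2.93% lower and 1.61% higher over all genes. EMCN, 1 of the 2, was selected for its low value. The second was PODXL, podocalyxin, a surface sialomucin known from podocytes and carcinoma cells, at 72.0 FPKM in sgGFP and 8.50 in sgTPST2 (-2.94) on chromosome 7. Without the added 1 PODXL was 8.47-fold lower and EMCN 70.8-fold. PODXL2 stood at 13.2 and 8.39 FPKM and CD164 at 117 and 126, and CD34 stayed under 0.1 FPKM in both.

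Other endothelial markers were scarce in both libraries. Of 17 markers, EMCN included, 6 were listed at 0 in both libraries (PECAM1, KDR, TEK, TIE1, ERG and SOX17), and VWF, a gene of the short arm of chromosome 12, was at 0.176 and 0.00482 FPKM. The 16 markers other than EMCN summed to 52.1 FPKM in sgGFP and 51.9 in sgTPST2, of which EGFL7, at 40.3 and 42.7, made up most. Of the 6 markers at 1 FPKM or more, 3 were 2-fold lower and 0 higher, beside 2.93% and 1.61% over all genes, and the 3 include EMCN, selected for its low value. They were EMCN, CDH5 (2.93 and 0.277 FPKM) and ROBO4 (2.34 and 0.308 FPKM), the last 2 named after their values were seen. All 3 passed the filter only through sgGFP, where they are high, so the count is no result about endothelial markers. The median of the 6 was -0.63, and that of the 3 markers at 5 FPKM or more was 0.082. MMRN2 stood at 4.52 and 6.67 FPKM. The part of such cells in the EMCN level was not tested. In the control, where EMCN was at 9.64 FPKM, the other markers ran from 0 (PECAM1 and KDR among them) to 40.3 FPKM (EGFL7). Fewer cells expressing a gene and less RNA per cell cannot be told apart in these bulk libraries.

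**Figure D4:**
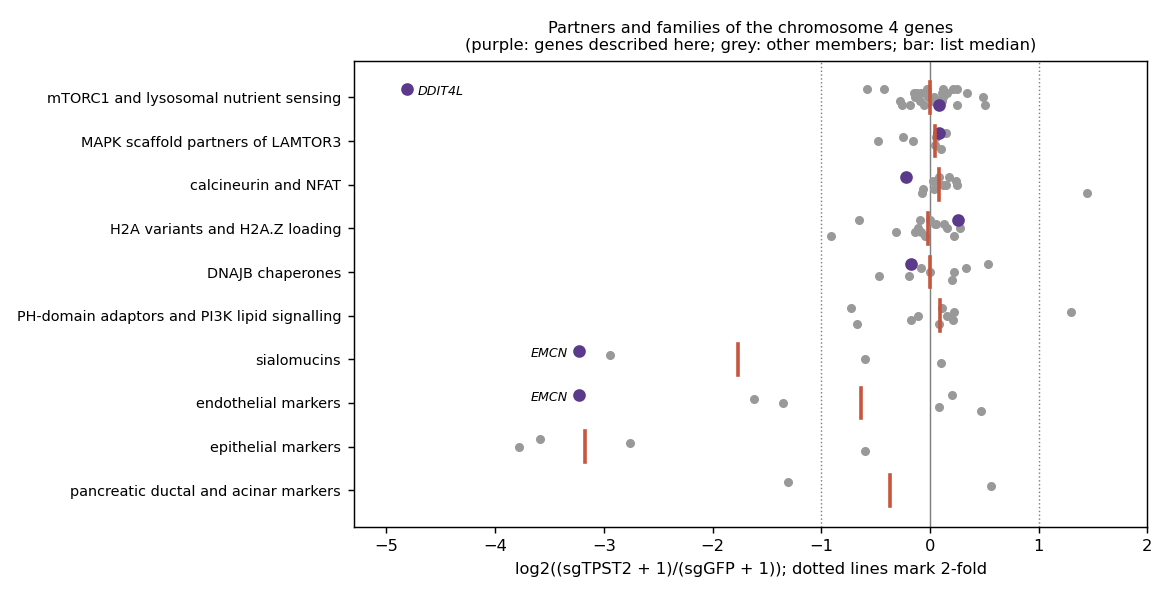
Difference between libraries, log2((sgTPST2 + 1)/(sgGFP + 1)), of each gene at 1 FPKM or more in 10 lists of partners, families and cell type markers; each point is 1 gene, purple for the 6 of the 7 genes described here that passed, red bars are list medians and dotted lines mark 2-fold. DDIT4L at -4.82 stands alone in the mTORC1 list, whereas EMCN at -3.23 and PODXL at -2.94 are close on this scale only (70.8-fold and 8.47-fold lower without the added 1), and the keratins lie at the low end of the epithelial list.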

How the data were processed

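Total RNA of 2 cultures was compared, 1 library per group. The submitters' processing notes name STAR, Cuffdiff and hg38; their versions, the strand setting and the annotation release are not given in the sources used. Genes that overlap on opposite strands may share reads. Per the file headers, the deposited table gives a value per gene and library, a p-value, a q-value, a log2 fold change and a test score. No unit is named there; the authors' values were read as FPKM, an assumption. The deposited log2 fold change equals log2((sgTPST2 + 1)/(sgGFP + 1)).

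All 58698 symbols matched GENCODE 29 (GRCh38), which gave coordinates. Genes entered at 1 FPKM or more in either library. Depth was read from the steps between low values of genes with 1 transcript longer than 1500 bases: 1 FPKM stood for about 42.2 fragments per kb in sgGFP and 48.1 in sgTPST2, and 91.6% and 93.0% of 837 and 776 values lay within 0.1 of a whole fragment, on the values used for fitting. Intervals take 1 kb of transcript. No test was made. Named genes are the 7 genes, all genes with symbols past the filter within 5 Mb, set partners, the list members with the largest differences at 5 FPKM or more, and the 3 nearest in difference. The members and lists were chosen with earlier results of these data known, and the motifs with the sequences in view. The depth reading and the 2-fold call were tried on simulated data with counting error only. The counts by region, pair and list were not. Python 3.11.15, numpy 2.4.6, pandas 2.3.3, scipy 1.17.1 and matplotlib 3.10.9 were used.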

Additional observations from a re-analysis of the deposited data

How the results depend on the processing

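No paired analysis was possible because each group is 1 library, which also leaves no replicate to leave out. With a pseudocount of 0.1 the log2 difference was -6.63 for DDIT4L and -5.37 for EMCN; LAMTOR3, DNAJB14, H2AFZ and PPP3CA stayed within their counting intervals with that pseudocount, with the same upper quartile and with centring on the median gene. Within 2 Mb on each side the median of the 13 other genes was 0.042. Within 10 Mb, 1 of 43 other genes was 2-fold lower and 1 higher, and at 1.5-fold 1 of the 23 within 5 Mb was higher. The number of low genes with another within 1 Mb was 140 of 337 (41.5%) with genes at 1 FPKM or more. It was 93 of 236 (39.4%) with the short arm of chromosome 12 kept, against 56 of 194 (28.9%). Dropping the filter on low values also gave 140. That was fixed beforehand, since with 1 added a gene can be 2-fold lower only from 1 FPKM or more. Among list medians, that of the endothelial markers turned from -0.63 to 0.082 with genes at 5 FPKM or more, and was -1.25 with a pseudocount of 0.1 and 0 with no filter. For sialomucins the median was -1.77 with genes at 1 FPKM or more and 0 without a filter. For ductal and acinar markers it was -0.37 and 0, and for epithelial markers -3.17 and -0.60. Low counts in sgTPST2 limit how far below the control DDIT4L and EMCN can be placed, and the unit of the values is an assumption.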
